A study of Mus musculus with 58 samples.

Results

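The retinas compared were those of diabetic mice taken at ZT21, late in the dark phase, and at ZT9, late in the light phase. ZT, or zeitgeber time, counts hours from the moment the lights come on. The 10 libraries were chosen by their titles, which give the genotype, the time and a replicate number, with 5 libraries at each time, out of 58 in the series. The diabetic animals were 4-month-old males of the strain C57BL/6-Ins2Akita/J, heterozygous for a mutation of the insulin 2 gene that makes the protein misfold, damages the beta cells and leaves the mice hyperglycemic. Their wild-type male littermates, of the same age and on the same 12 h light and 12 h dark schedule, gave the 5 libraries at ZT9 and the 4 at ZT21 that served as the control. All mice were perfused, each retina was dissected and frozen, the night samples were handled under dim red light, and ribosomal RNA was depleted from total RNA before sequencing. The 2 times thus differ in clock time, in the light the animals had seen and in the light of dissection, and these cannot be told apart. The series as a whole covers 6 times of day in both genotypes and was designed to follow the daily expression of the retina early in diabetes.

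The retina holds its own circadian clock, in which CLOCK and BMAL1 (encoded by Arntl) activate genes with E-boxes in their promoters, among them those of the PER, CRY and CIART repressors that then shut the activators down. Dopamine marks the day and, in retinas that make it, melatonin the night, and both can act on cyclic AMP in photoreceptors through their receptors. Whether the retinas of these mice made melatonin was not measured. Photoreceptors also change with light directly: arrestins quench activated opsins, and in the dark the open channels of the outer segment raise the demand for energy.

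Depth was 8823091 to 15850348 counted reads per library at ZT9 and 15346073 to 22147398 at ZT21 (exact two-sided permutation test, p = 0.0238, 0.143 after adjustment over 18 library measures). Summed markers of rods, the main cell of the retina, reached 34269.7 to 47746 CPM (counts scaled to the size of the library) over the 10 libraries, and those of cones 763 to 878 CPM. The cone sum holds Arr3 and Opn1sw, which changed in opposite directions (below), so it cannot show whether cones differed. The rod sum had an exact permutation p of 0.754 between the times. Lens transcripts, however, summed to 76.2 and 83.5 CPM in ZT9 replicates 4 and 5, against 1.21 to 2.85 in the other 8 libraries, and they are called below the 2 libraries with lens transcripts. Crybb2, a lens crystallin, reached 22.2 and 28.1 CPM in these libraries and at most 0.328 in the others. Markers of the retinal pigment epithelium, the layer behind the photoreceptors that can tear off with the retina, summed to 97.9 to 199 CPM at ZT9 and 203 to 315 at ZT21, with no overlap (exact permutation p = 0.00794, the smallest that 5 against 5 can give, adjusted p = 0.0714). In whole tissue, fewer cells of a type and less RNA per cell cannot be told apart.

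Values below are CPM after TMM scaling, and means are given ± SD over the 5 libraries of a time. Of 18814 genes tested with edgeR's quasi-likelihood test, 957 (5.09%) differed between ZT21 and ZT9 at an adjusted p under 0.05, 447 (2.38%) of them higher and 510 (2.71%) lower at ZT21. Differences were small: the median fold was 1.26 for the genes that rose and 1.28 for those that fell, and 368 and 420 of them changed by less than 1.5-fold. A fold of 2 or more was reached by 29 genes that rose and 27 that fell. The 5 libraries of each time did not overlap for 270 of the 447 and 322 of the 510 genes. Over all genes tested, 5.3% had no overlap, 2.47% higher and 2.84% lower at ZT21. The number of calls depended on single libraries, with 539 left without ZT9 replicate 5, 626 without ZT21 replicate 4 and 374 without the ZT9 replicates 4 and 5 that held lens transcripts, a removal added after the data were seen. Of these 374 genes, 340 were among the 957. No gene of the 957 turned its direction in any of these fits. With upper-quartile scaling the calls were 577 higher and 436 lower, so the share of calls that were higher moved from 46.7% to 57%.

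**Figure D1:**
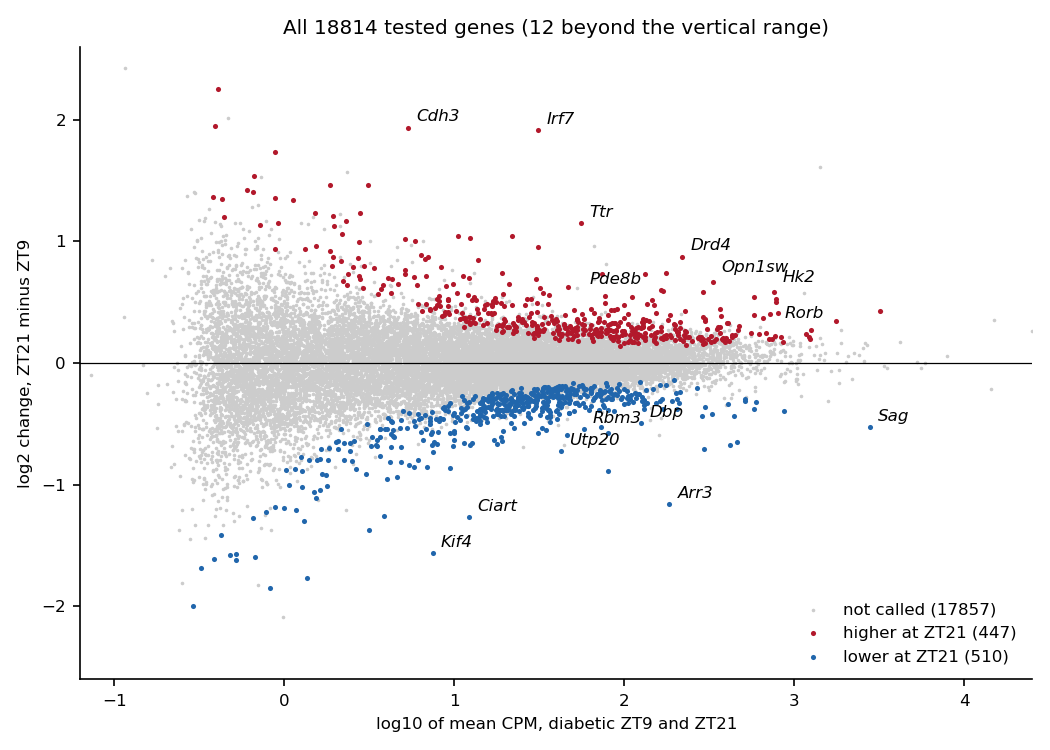
Log2 change from ZT9 to ZT21 in diabetic retina (vertical) against the log10 of the mean CPM over the 10 libraries (horizontal) for the 18814 genes tested, with the 447 called higher in red, the 510 called lower in blue and the rest in grey. Most called genes lie close to 0 (median folds 1.26 and 1.28), and Irf7, Cdh3, Kif4, Ciart and Arr3 stand well away from it.

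The gene with the smallest p-value was Arr3, which encodes cone arrestin (chromosome X, 100605497 to 100618493, plus strand, in Gencode M21 on GRCm38). Its level in the 5 libraries at ZT9 was 276, 244, 243, 239.7 and 269 CPM. At ZT21 it was 126, 123, 104, 105 and 109 CPM. Every night library thus lay below every day library, and Arr3 fell by 1.16 on the log2 scale (SE 0.10, adjusted p = 1.21e-12), a 2.24-fold drop. Sag, the rod arrestin (chromosome 1, 87803680 to 87845158, plus strand), fell as well, from 3281 ± 288 CPM at ZT9 to 2277 ± 147 CPM at ZT21 (log2 change -0.53, SE 0.08, adjusted p = 5.83e-06), again without overlap. Opn1sw, the short-wavelength cone opsin (chromosome 6, 29376671 to 29388468, minus strand), moved the other way. Its Gencode M21 span begins upstream of the RefSeq start used for the promoter, which lies inside that span. It stood at 263, 246, 281, 254 and 252.4 CPM at ZT9. The ZT21 libraries held 419, 353, 420.1, 413 and 449 CPM, all above the day values (log2 change 0.66, SE 0.09, adjusted p = 3.23e-06). Opn1sw overlaps Calu on the other strand, and since the strand setting of the counting is not given in the sources used here, reads of the 2 genes may not be fully separate.

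Because Sag and Opn1sw changed in opposite directions, the 250 bases before their RefSeq start sites are shown as RefSeq gives them for GRCm38.p6, 5′ to 3′ on the strand of the gene. Capitals mark the letters AGGTCA or its complement TGACCT, a half-site of nuclear receptors such as RORB, and, in Sag, GGATTA, the complement of the CRX site TAATCC. The windows are chr1:87803430-87803679 (plus strand) and chr6:29380514-29380763 (minus strand).
Sag: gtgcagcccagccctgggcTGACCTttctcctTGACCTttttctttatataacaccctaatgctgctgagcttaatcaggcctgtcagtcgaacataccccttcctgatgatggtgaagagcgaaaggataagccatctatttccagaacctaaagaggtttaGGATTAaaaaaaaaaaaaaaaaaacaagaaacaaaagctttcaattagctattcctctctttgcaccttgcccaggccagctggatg
Opn1sw: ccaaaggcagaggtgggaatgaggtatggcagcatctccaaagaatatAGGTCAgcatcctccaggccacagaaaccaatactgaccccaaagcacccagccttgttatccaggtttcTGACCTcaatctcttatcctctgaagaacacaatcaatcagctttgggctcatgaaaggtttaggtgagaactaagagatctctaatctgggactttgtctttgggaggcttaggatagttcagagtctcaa
Both strands were searched in windows of this length. AGGTCA was found in 14% of all promoters, 13.1% of those of genes tested, 13.5% of those of genes that rose and 12.4% of those of genes that fell, and TAATCC in 6.25%, 6.58%, 8.56% and 7.44%. The window of Arr3 held none of the motifs searched. These matches describe the letters of the windows and were not tested for binding.

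Over all genes tested 2.38% were called higher and 2.71% lower, against which the counts of photoreceptor genes are set. Of the 11 genes of cone phototransduction, 1 rose and 3 fell, with a list median of 0.10 on the log2 scale against -0.01 for all genes tested. With upper-quartile scaling the list had 2 genes higher and 2 lower. Besides Arr3 and Opn1sw, the calls were the medium-wavelength opsin Opn1mw (log2 change -0.39, adjusted p = 0.0304) and the cone phosphodiesterase Pde6c (-0.23, adjusted p = 0.0391), and neither was called without the 2 libraries with lens transcripts. Among 11 genes that shut off the photoresponse or carry its calcium feedback, 3 fell and 1 rose, with a median of -0.08. Beside Sag, the guanylate cyclase activators Guca1b (from 987 ± 90.5 CPM at ZT9 to 750.1 ± 63.6 CPM at ZT21) and Guca1a (from 508 ± 77 CPM at ZT9 to 375 ± 43.6 CPM at ZT21) fell, with adjusted p-values of 0.000717 and 0.00728, the latter lost without the 2 libraries with lens transcripts. Recoverin, Rcvrn, which delays the phosphorylation of rhodopsin, rose from 620.3 ± 65.5 CPM at ZT9 to 818 ± 109 CPM at ZT21 (adjusted p = 0.0142), a call lost without ZT21 replicate 3 (adjusted p = 0.0577). None of the 10 genes of rod phototransduction passed the test, and their median was 0.00. Of these, Pde6a (0.16, adjusted p = 0.0709 by edgeR) was called higher in 5 of 22 alternative settings. Pde6b (-0.17, adjusted p = 0.0745 by edgeR) was called lower in 4 of the 22. Of 14 photoreceptor transcription factors 3 rose and 2 fell, among them the orphan receptors Rorb (0.53, adjusted p = 0.000188) and Esrrb (0.40, adjusted p = 0.00766) upward and the repressor partners Samd7 (-0.30, adjusted p = 0.0211) and Samd11 (-0.33, adjusted p = 0.0433) downward. Esrrb and Samd11 were not called without the 2 libraries with lens transcripts, and Samd7 was not called without ZT9 replicate 3 or without ZT21 replicate 5 (adjusted p up to 0.0665).

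**Figure D2:**
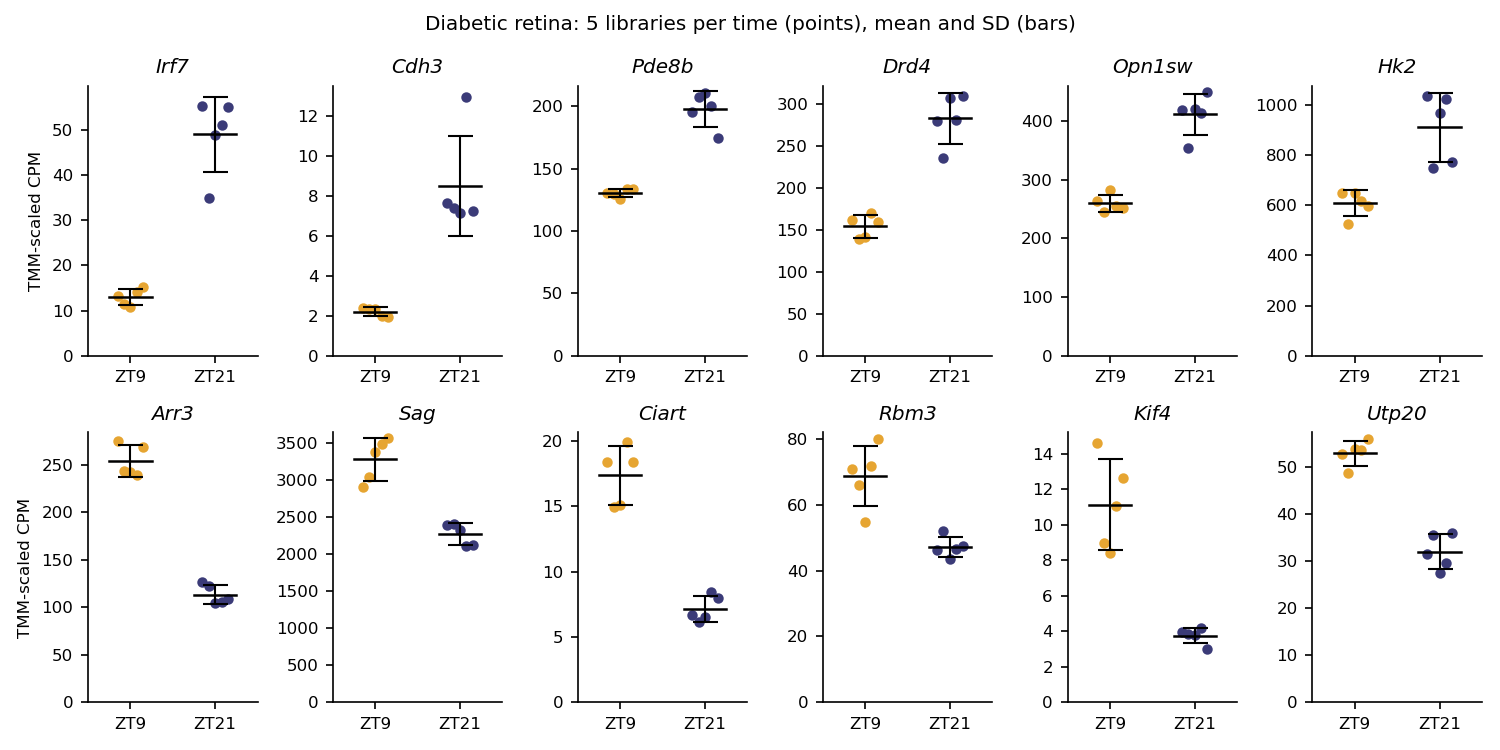
TMM-scaled CPM (vertical, from 0) of 12 genes in the 5 ZT9 (orange) and 5 ZT21 (blue) libraries of diabetic retina, with the mean as a long bar and the SD as whiskers. The upper row holds genes that rose and the lower row genes that fell, and the libraries of the 2 times do not overlap in any panel.

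Of the 21 clock genes and output factors in 4 lists, 3 passed the test, where 5.09% of all genes tested did. None of the 4 activators did, and Arntl held 128 ± 12.3 CPM at ZT9 and 132 ± 5.12 CPM at ZT21. Of the 6 repressors Ciart, an inhibitor of CLOCK and BMAL1, was the 1 to pass, downward. Its level at ZT9 was 18.4, 14.9, 15.1, 19.9 and 18.4 CPM. At ZT21 it was 6.7, 6.13, 6.55, 8.42 and 7.98 CPM. The night libraries held less than every day library (log2 change -1.27, SE 0.15, adjusted p = 2.85e-08), a 2.41-fold drop. Per1 averaged 164 ± 44.7 CPM at ZT9 and 119 ± 16 CPM at ZT21, and its adjusted p of 0.0698 by edgeR did not pass, but it was called lower in 6 of 22 alternative settings, DESeq2 among them (adjusted p from 0.000951 to 0.661 over the 22). The ZT9 libraries of Per1 spread widely, from 127 to 226 CPM, and the highest were replicates 4 and 5, the libraries with lens transcripts. Per2, Per3, Cry1 and Cry2 had log2 changes of -0.15, -0.19, -0.10 and -0.01, with adjusted p-values of 0.594, 0.202, 0.542 and 0.949. Rorb, a nuclear receptor that activates Arntl, rose from 642 ± 99.2 CPM at ZT9 to 926 ± 64.6 CPM at ZT21, and Nr1d1, encoding its opponent REV-ERBα, averaged 239 ± 41.7 CPM at ZT9 and 225 ± 29.9 CPM at ZT21 (adjusted p = 0.819). Dbp, an output factor of the clock, fell from 147 ± 13.9 CPM at ZT9 to 104 ± 9.87 CPM at ZT21 (log2 change -0.49, adjusted p = 0.00557), a call lost without the 2 libraries with lens transcripts. Tef, of the same family, had a log2 change of -0.16 (adjusted p = 0.0671) and was likewise called lower in 6 of the 22 settings (adjusted p from 0.0181 to 0.37). Other members of these lists that were not called had log2 changes of 0.05 for Clock, 0.42 for Npas2, -0.02 for Arntl2, -0.19 for Nr1d2, 0.11 for Rora, -0.05 for Hlf, 0.31 for Nfil3, -0.22 for Bhlhe40 and -0.11 for Bhlhe41. Of these, Nfil3 and Nr1d2 each passed in 1 of the 22 settings and the others in none.

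The promoter of Ciart is shown because it carries 3 E-boxes, the letters CACGTG in capitals, at 116, 58 and 44 bases before the RefSeq start. The window is chr3:95882229-95882478 (minus strand) in GRCm38.p6, from RefSeq.
Ciart: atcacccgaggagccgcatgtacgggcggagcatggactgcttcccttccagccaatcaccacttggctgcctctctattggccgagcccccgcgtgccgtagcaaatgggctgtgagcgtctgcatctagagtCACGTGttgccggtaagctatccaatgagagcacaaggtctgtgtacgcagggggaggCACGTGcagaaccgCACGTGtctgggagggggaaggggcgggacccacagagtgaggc
CACGTG was present in 6.02% of all promoters of this length, 9.46% of those of genes tested, 8.26% of those of genes that rose and 10.4% of those of genes that fell. The windows of Dbp and Rorb, the other genes called among the clock genes and output factors, held no CACGTG.

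Of 15 genes of dopamine and cyclic AMP signaling, 4 rose and 1 fell, where 2.38% of all genes tested were called higher and 2.71% lower. The list median was 0.15, against -0.01 for all genes. Without the 2 libraries with lens transcripts 3 were called higher and 1 lower. The melatonin genes Aanat, Mtnr1a and Mtnr1b were too low to be tested. Drd4, the dopamine receptor of photoreceptors, stood at 162, 139, 141, 169 and 159 CPM at ZT9. It reached 279, 235, 307, 281 and 309 CPM at ZT21, with no overlap (log2 change 0.88, SE 0.14, adjusted p = 3.04e-05). Pde8b, a phosphodiesterase that degrades cyclic AMP, had the smallest p-value of all genes that rose. Its ZT9 libraries held 131, 129, 126, 133 and 134 CPM. Its ZT21 libraries held 195, 208, 211, 199.8 and 175 CPM, and the lowest of them lay well above the highest day value (log2 change 0.60, SE 0.06, adjusted p = 7.36e-10). Gnaz, an inhibitory G protein subunit, rose from 135 ± 13.8 CPM at ZT9 to 204 ± 25.3 CPM at ZT21 (adjusted p = 0.00164). Adcy1, the calcium-stimulated adenylate cyclase, fell from 666 ± 50.1 CPM at ZT9 to 532.5 ± 18 CPM at ZT21 (adjusted p = 0.000657). Of 6 clock-controlled genes of the retina, Drd4 and Plekhb1 (0.50, adjusted p = 0.000219) rose, Adcy1 fell and 3 were not called (5.09% of all genes tested were called), with a list median of 0.09. The 3 were Usp2, Cys1 and Nr2e3, with log2 changes of -0.38, 0.08 and 0.10 and adjusted p-values of 0.0766, 0.802 and 0.63. Usp2 was called lower in 6 of the 22 settings (adjusted p from 0.0136 to 0.814). Sik2, a kinase downstream of cyclic AMP, rose from 133 ± 12.1 CPM at ZT9 to 221 ± 11.3 CPM at ZT21 (adjusted p = 5.03e-07).

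By the sign of the fitted change, 10 of 13 genes of upper glycolysis and all 8 of lower glycolysis were higher at ZT21. In the upper part of the pathway 3 of 13 passed the test, in the lower part 3 of 8, all upward, where 2.38% of all genes tested were called higher, with medians of 0.17 and 0.24 on the log2 scale against -0.01 for all genes. Hk2, which phosphorylates glucose and is the hexokinase of photoreceptors, had 650.1, 526, 648, 618 and 598 CPM at ZT9. At ZT21 it had 1034, 749, 968, 1024 and 772 CPM, above all day libraries (log2 change 0.58, SE 0.10, adjusted p = 7.56e-05). Tpi1, Aldoa, Eno2, Pgk1 and Pgam1 rose by 0.33, 0.35, 0.30, 0.37 and 0.26 on the log2 scale, with adjusted p-values of 0.0219, 0.0486, 0.00844, 0.0226 and 0.0388. Hk2 alone of these 6 was called without the 2 libraries with lens transcripts, when the list medians were 0.20 and 0.23. Slc16a3, a lactate exporter, rose from 36.6 ± 4.85 CPM at ZT9 to 56.6 ± 4.02 CPM at ZT21 (adjusted p = 0.00292). Of 9 HIF factors and oxygen sensors 2 fell (2.71% of all genes tested did) and 7 were not called, and none of 15 HIF targets outside glycolysis was called, of which P4ha1 (0.26, adjusted p = 0.0621) was called higher in 7 of 22 alternative settings, those without the libraries with lens transcripts among them (adjusted p from 0.0179 to 0.21). The 2 were Hif1an and Hif3a (-0.28 and -0.67, adjusted p = 0.00234 and 0.0204), and neither was called without those 2 libraries. Of 14 genes of fatty acid synthesis 3 rose, Scd1, Scd2 and Srebf1 (0.48, 0.23 and 0.35), and none of the 3 was called without those libraries. Acadm, which oxidizes medium-chain fatty acids, fell from 86.6 ± 9.94 CPM at ZT9 to 60.2 ± 3.84 CPM at ZT21 (adjusted p = 3.23e-06). No gene passed among 17 of the citric acid cycle, 37 of complex I or 34 of complexes III to V.

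Of 39 genes of DNA repair and replication 5 fell and none rose, where 2.71% of all genes tested were called lower, and the list median was -0.19. With upper-quartile scaling 5 were called lower and 1 higher, and without the 2 libraries with lens transcripts 3 were called lower. The helicase subunits Mcm3, Mcm5 and Mcm7 fell by 0.92, 0.77 and 0.36 on the log2 scale. Mcm7 was not called without those libraries, and neither Mcm3 nor Mcm7 was called with counts thinned to the smallest library. Outside the list, Kif4, a chromosome-associated kinesin, had the largest fall among called genes that averaged at least 1 CPM and whose groups did not overlap. It stood at 14.6, 8.98, 8.39, 11 and 12.6 CPM at ZT9. It dropped to 3.97, 3.83, 3.78, 4.19 and 3.03 CPM at ZT21, a 2.96-fold change (log2 change -1.57, SE 0.19, adjusted p = 7.7e-08). Tacc3, a spindle protein, fell from 7.45 ± 1.34 CPM at ZT9 to 4.12 ± 0.266 CPM at ZT21 (adjusted p = 2.15e-06). Kif4, Tacc3 and Mcm7 each overlap a gene on the other strand that was read more deeply. The part of those neighbours in these values was not tested.

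Utp20, a component of the small-subunit processome, held 52.9, 48.8, 53.8, 53.6 and 56 CPM at ZT9. At ZT21 it held 31.7, 35.6, 27.5, 29.6 and 36.1 CPM, all lower (log2 change -0.73, SE 0.08, adjusted p = 1.31e-09). Rbm19, another factor of ribosomal RNA processing, fell from 23.1 ± 1.93 CPM at ZT9 to 15.7 ± 0.759 CPM at ZT21 (adjusted p = 7.81e-06). BC027072 fell from 513 ± 81.7 CPM at ZT9 to 321 ± 25.7 CPM at ZT21 (adjusted p = 4.32e-06). Of 67 cytosolic ribosomal proteins 1 was called and the median was -0.00. The call, Rpl10a, was lost without the 2 libraries with lens transcripts. Rbm3, an RNA-binding protein induced by cooling, fell from 68.7 ± 9.23 CPM at ZT9 to 47.1 ± 3.07 CPM at ZT21 (log2 change -0.54, adjusted p = 5.55e-05), while Cirbp, its relative, had a change of -0.12 (adjusted p = 0.47) and Srsf5 one of -0.19 (adjusted p = 0.287). Of 30 splicing factors and CLK kinases 3 fell (2.71% of all genes did) and none rose, led by Hnrnpdl (-0.37, adjusted p = 8.12e-05), with a median of -0.12. Hnrnpdl alone of the 3 was called without the 2 libraries with lens transcripts. Hsp90aa1 was the 1 of 21 heat shock genes to pass, upward (0.41, adjusted p = 0.000501), and with 5.09% of all genes called this count is no result about the list.

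**Figure D3:**
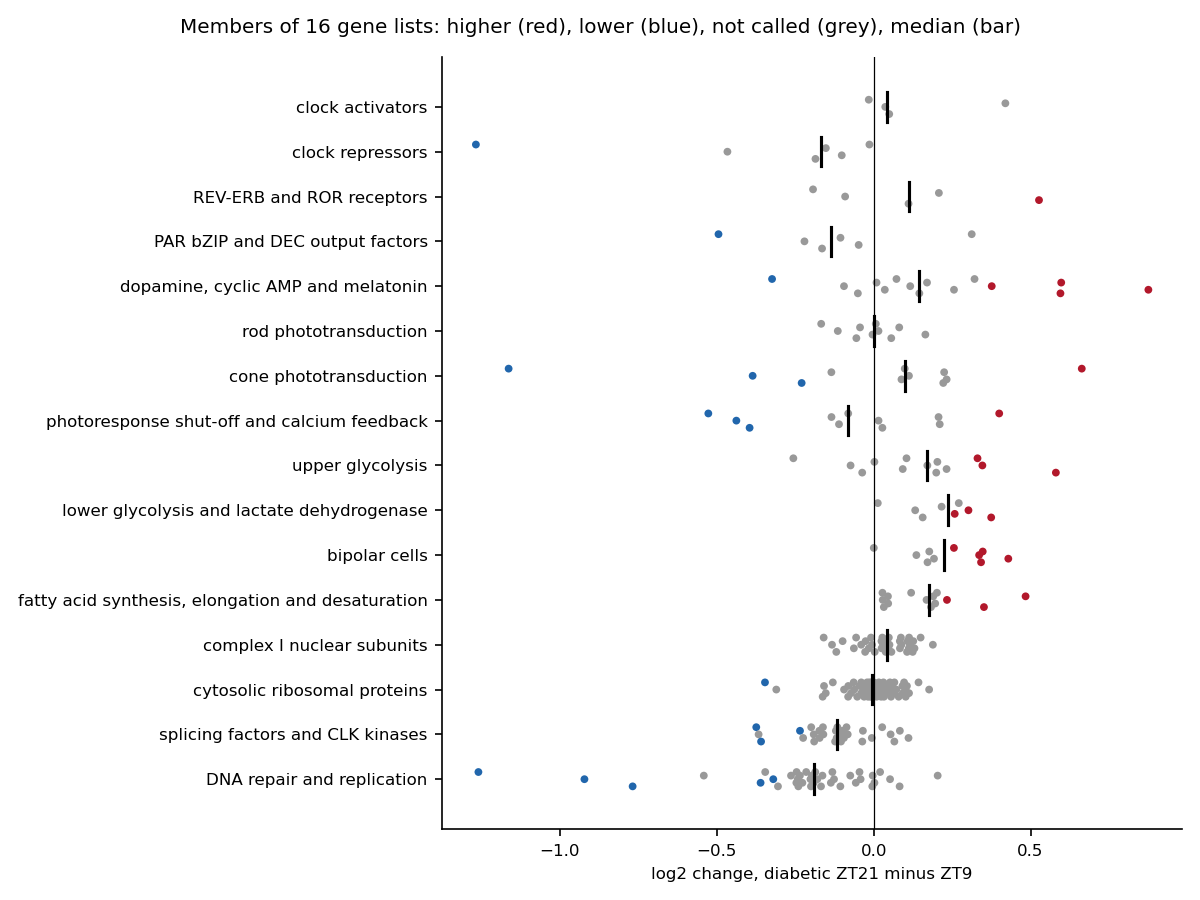
Log2 change from ZT9 to ZT21 in diabetic retina (horizontal) for the tested members of 16 gene lists, with genes called higher in red, called lower in blue and not called in grey, and the list median as a black bar. The list of dopamine, cyclic AMP and melatonin holds no tested melatonin gene. Calls lie to the right in glycolysis and bipolar cells and to the left in DNA repair and splicing, and complex I holds none.

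Irf7, a transcription factor of the interferon response (chromosome 7, 141262706 to 141266481, minus strand), had 13.3, 11.4, 10.9, 14.2 and 15.3 CPM at ZT9. It had 55.3, 35, 48.8, 51 and 55 CPM at ZT21, a 3.78-fold rise (log2 change 1.92, SE 0.19, adjusted p = 7.36e-10). Every night library was above every day library, and Irf7 overlaps the more deeply read Phrf1 on the other strand. Cdh3, the adhesion protein P-cadherin, rose from 2.21 ± 0.213 CPM at ZT9 to 8.47 ± 2.5 CPM at ZT21 (adjusted p = 3.87e-07), with ZT21 replicate 4 at 12.9 CPM above the rest. Fabp7, a fatty acid-binding protein of glia, rose from 0.648 ± 0.205 CPM at ZT9 to 1.61 ± 0.135 CPM at ZT21 (adjusted p = 0.000608). Its call was lost with counts thinned to the smallest library (adjusted p = 0.241 by edgeR). Aqp1, a water channel, rose from 99.3 ± 8.31 CPM at ZT9 to 165 ± 16.5 CPM at ZT21 (adjusted p = 6.25e-06). Dip2b, Zdhhc5, Wwc2 and Pitpnm3 rose by 0.52, 0.58, 0.31 and 0.55 on the log2 scale, and the adjusted p of each was at most 1.8e-05. Tmem72 and the pigment cell gene Oca2 rose as well (log2 changes of 1.46 and 1.46, adjusted p = 0.00254 and 0.0118). So did Slc16a8, the lactate transporter of the pigment epithelium (1.02, adjusted p = 0.0381). None of these 3 was called without the 2 libraries with lens transcripts. Those libraries also had the lowest summed pigment epithelium markers at ZT9, 97.9 and 108 CPM, against 138 to 199 CPM in the others of that time.

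Markers of the pigment epithelium moved with this comparison: all 13 were higher at ZT21 by their fitted change, with a median of 0.61, and 1 of the 13 passed the test. Rpe65 ranged from 10.7 to 36.2 CPM at ZT9 and from 26.6 to 43.7 at ZT21, and the part of this tissue in the rises of Oca2, Slc16a8, Cdh3 and Tmem72 was not tested. Over all genes tested, 2.38% were called higher and 5.09% were called. Of 10 bipolar cell markers, 5 rose and none fell, among them Cabp5, Grik1, Grm6 and Vsx1, with a list median of 0.22, and 2 were called without the 2 libraries with lens transcripts. Whether bipolar cells were more numerous in these libraries was not tested. Grm6, the glutamate receptor of ON bipolar cells, stood at 119.7, 127, 115, 125 and 132 CPM at ZT9. It stood at 155, 164, 170.1, 147 and 152 CPM at ZT21, above all day libraries (log2 change 0.35, adjusted p = 0.00749). The summed bipolar markers did not overlap either, at 1549 to 1729.8 and 1783 to 1936 CPM (exact permutation p = 0.00794, adjusted p = 0.0714). Of the markers of other inner retinal cells, the fitted change was positive in 11 of 11 for ganglion cells (median 0.27, 1 called), 9 of 9 for Muller glia (median 0.08, 1 called), 5 of 5 for horizontal cells (median 0.14, none called) and 7 of 9 for amacrine cells (median 0.12, none called). The summed ganglion cell markers were 688 to 920.4 CPM at ZT9 and 780.5 to 1026 at ZT21 (exact permutation p = 0.0476, adjusted p = 0.163). Cldn5, a tight junction protein of endothelium, rose from 4.45 ± 0.807 CPM at ZT9 to 8.24 ± 1.53 CPM at ZT21 (adjusted p = 6.58e-05), as the 1 of 13 vascular markers to pass. The single calls among 13 pigment epithelium, 11 ganglion cell, 9 Muller glia and 13 vascular markers are too few to be read against that share.

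Control retina shares no library with the diabetic comparison, and the same 2 times were compared there. In the control 439 genes (2.33%) were called, 236 (1.25%) higher and 203 (1.08%) lower at ZT21, with 5 and 4 libraries. Lens transcripts were present there too, at 2462 CPM in ZT21 replicate 2 against 0.658 to 12.7 in the other 8 control libraries, and 5 of 13 lens markers were called higher. Without that library 361 genes were called. Of the 447 genes that rose in diabetic retina 441 had the same sign in the control, and of the 510 that fell 502 did, where 71.6% of all genes tested had the same sign. Both comparisons called 247 genes in the same direction, which is 25.8% of the diabetic and 56.3% of the control calls, and no gene in opposite directions. The median log2 change of the genes called in diabetic retina was 0.33 and -0.35 there, the contrast they were chosen in, and 0.24 and -0.24 in the control. With the 3 libraries with lens transcripts of both genotypes left out, 359 genes were called in diabetic and 381 in control retina, so the diabetic comparison no longer had more calls. Of those 359, 174 were higher, all with the same sign in the control, and 185 were lower, 184 with the same sign.

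The difference between the genotypes in the ZT21 minus ZT9 change was tested as an interaction. No gene passed with edgeR (smallest adjusted p = 0.372), 465 (2.47%) had an unadjusted p under 0.05, and DESeq2 called 3. A fit of the 4 groups alone called 1, and none was called without the 3 libraries with lens transcripts. Arr3 changed by -1.16 in diabetic and -0.91 in control retina, and the 95% interval of the difference ran from -0.53 to 0.02. For Utp20 the changes were -0.73 and -0.39, with an interval of -0.55 to -0.12 and an adjusted interaction p of 1 by edgeR. Kif4 changed by -1.57 and -2.32, and Ciart by -1.27 and -1.28, with an interval of -0.41 to 0.43. The smallest adjusted p belonged to 1700016P03Rik, an unnamed cDNA. Next came Pdgfb, a vascular growth factor (0.33 against -0.70), and Nrap (0.51 against -1.28), each with an adjusted p that rounded to 1, and the lens crystallin Crybb2, whose diabetic reads came mostly from the 2 libraries with lens transcripts and whose control comparison includes the 1 control library with them.

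**Figure D4:**
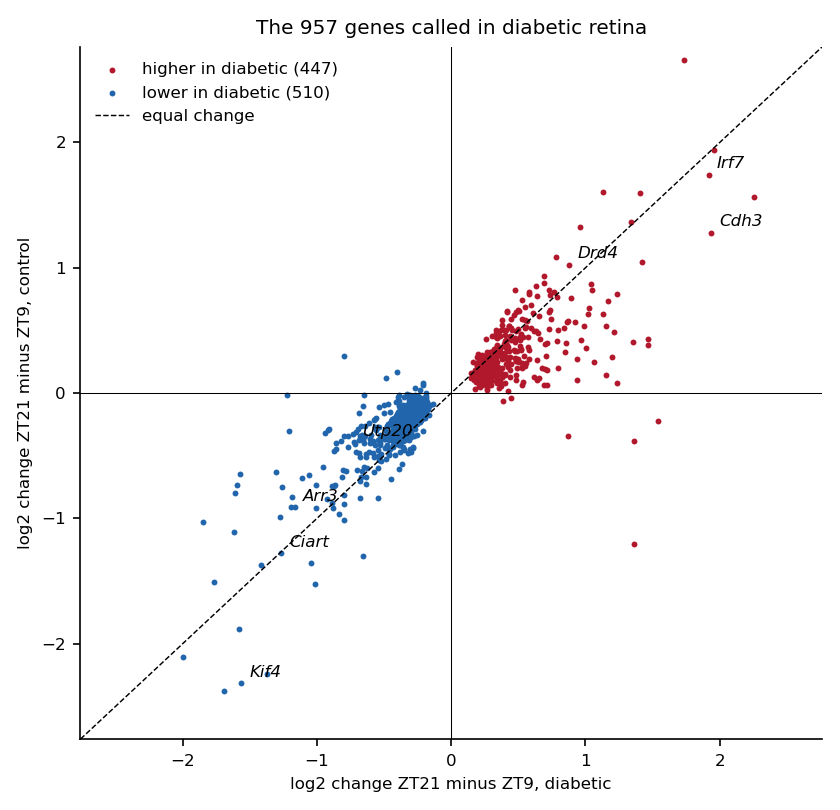
Log2 change from ZT9 to ZT21 in control retina (vertical) against that in diabetic retina (horizontal) for the 957 genes called in diabetic retina, with those higher in red, those lower in blue and equal change as a dashed line. The points lie mostly in the quadrants of equal sign, as 441 of 447 and 502 of 510 did.

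The genes called were chosen for their difference between ZT9 and ZT21 in these libraries, which favours extremes at those times, so their peak and trough times are a description only. Of the 447 genes that rose, 208 had their highest diabetic mean at ZT21 and 214 at ZT17, and 240 had their lowest at ZT9 and 117 at ZT5. Of the 510 that fell, 377 had their highest mean at ZT9, and 273 had their lowest at ZT21 and 210 at ZT17. Ciart, Arr3, Dbp, Rbm3 and Utp20 peaked at ZT9 and were lowest at ZT21 among the 6 diabetic means. Irf7, Pde8b, Drd4 and Hk2 peaked at ZT17, where Irf7 averaged 59.1 CPM and Drd4 298 CPM. Opn1sw was lowest at ZT9 and highest at ZT21.

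**Figure D5:**
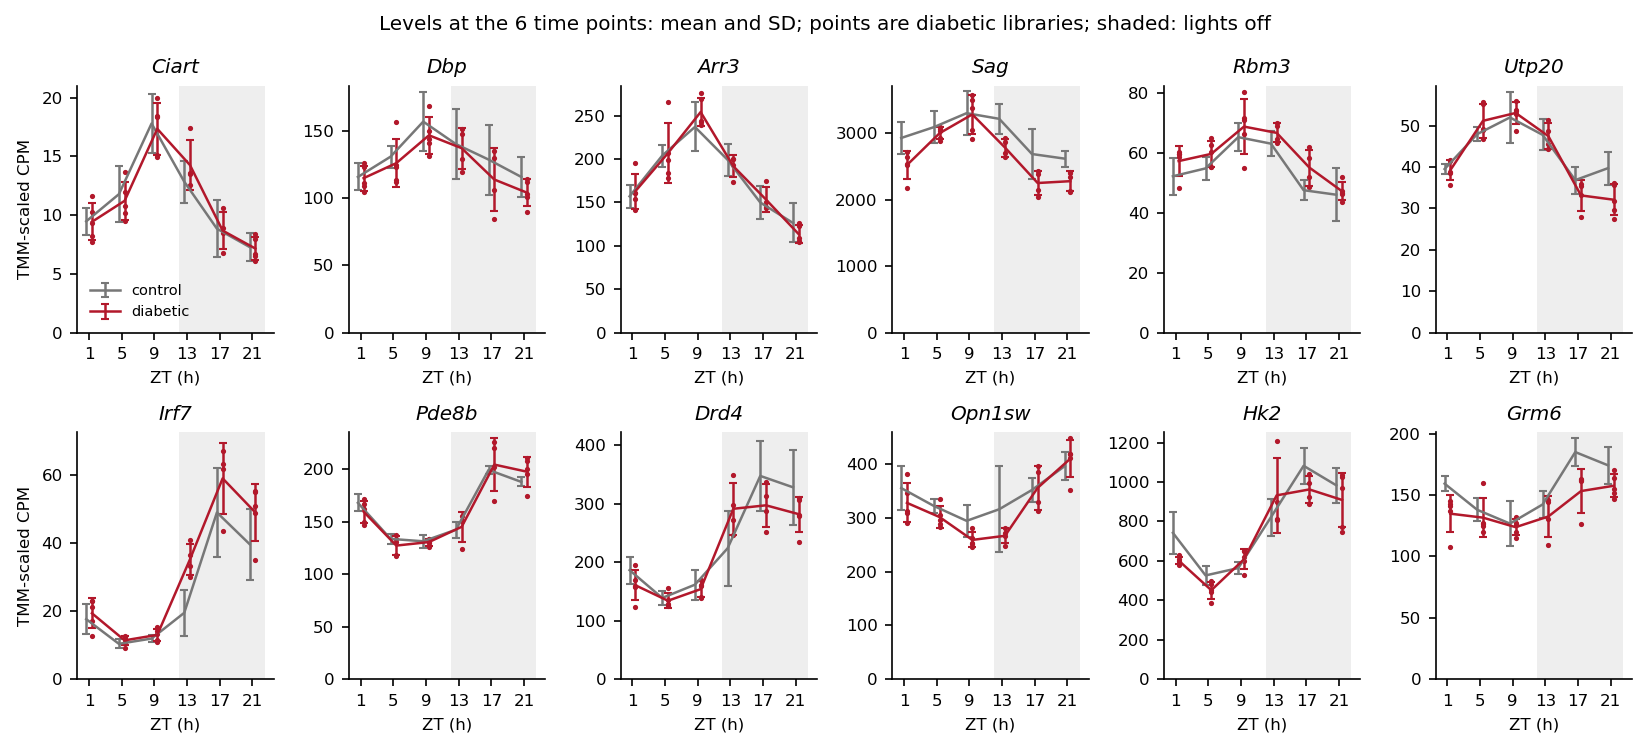
TMM-scaled CPM (vertical, from 0) of 12 genes at the 6 times (horizontal, ZT in hours) in diabetic (red, points are libraries) and control (grey) retina, as mean and SD, with the dark phase shaded. Ciart, Arr3 and Utp20 peak at ZT9, and Irf7, Pde8b and Drd4 peak in the dark phase. Irf7 at ZT13 averaged 35.2 CPM in diabetic and 19.5 CPM in control retina, a difference that was not tested.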

How the data were processed

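RNA was sequenced from individual retinas. As the study's methods and the submitters' processing notes state, the authors aligned reads with STAR 2.7.4a to GRCm38.p5 with Gencode M15 and counted them per gene with HTSeq 0.11.1, and they deposited raw counts, neither normalized nor filtered, for 52459 symbols. The strand setting of the counting is not given in the sources used here.

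Counts were tested with edgeR 4.0.16 (R 4.3.3): TMM factors, filterByExpr, 1 robust quasi-likelihood fit of 12 genotype and time groups over all 58 libraries, and Benjamini-Hochberg adjustment over 18814 genes. Values are TMM-scaled CPM, and changes are log2 of ZT21 over ZT9. Library measures used exact permutation tests in scipy 1.17.1. Intervals of 95% were normal approximations from the fitted SE. Coordinates came from Gencode M21, which 18093 of the tested symbols matched, and promoters from RefSeq. The test was tried on simulated data. In the 4 groups compared here, none of the 36 pairs of replicates agreed within sampling noise (lowest chi-square per degree of freedom 2.71).

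Genes were named by a rule: the 10 smallest p-values and, among genes of at least 1 CPM without overlap, the 5 largest folds in each direction, all members of the clock, clock-controlled and cold-inducible lists, up to 4 of every other list, and the 3 smallest interaction p-values, unnamed cDNAs and pseudogenes left out. 1700016P03Rik fell outside it and was named after its value was seen. The comparison, the 49 gene lists and the 14 marker lists were chosen with earlier results of these data known. A few of the genes the rule picked are not reported here. Alternatives were DESeq2 1.42.0, limma-voom 3.58.1, other scalings, filters and samples, thinned counts, GC and length offsets, a replicate block, each library left out and, added after the data were seen, the diabetic libraries with lens transcripts left out, with and without the control library that held them.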

Additional observations from a re-analysis of the deposited data

Results flagged for a closer look

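The values of 108 genes and 18 library measures were examined at both times, with 5 libraries per time. The search was for 1 library standing apart from the other 4. Each gene or measure was counted separately at each time, and 12 of these sets of 5 values (4.76%) were flagged. Chance gives about 1 in 20, so the number flagged is no more than chance gives, and those listed here are a description only. Among genes called in the comparison, Cdh3 was 12.9 CPM in ZT21 replicate 4, Adcy1 was 564 CPM in ZT21 replicate 1, Aqp1 was 114 CPM in ZT9 replicate 3, Tmem72 was 3.11 CPM in ZT9 replicate 2, and Ribc2 was 0.945 CPM in ZT21 replicate 3. Rpl10a was 54.8 CPM and the ganglion cell marker Pou4f1 29 CPM in ZT21 replicate 2. The glial water channel Aqp4 was 95.9 CPM in ZT9 replicate 5. Of genes not called, Cys1 was 14.6 CPM in ZT21 replicate 3 and Nr1d2 200.2 CPM in ZT9 replicate 4. Summed markers of endothelium and pericytes were 466 CPM in ZT21 replicate 5, and those of cornea and ciliary body 12.2 CPM in ZT21 replicate 4.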

How the results depend on the processing

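Against 957 calls in diabetic retina, 502 were made with the libraries of both times alone, 545 without a filter on low counts, 501 with counts thinned to the smallest library, 1723 with GC and length trends removed and 374 without the ZT9 libraries with lens transcripts (359 when the control library with them was left out too), and 539 to 1093 with 1 library left out. Against 439 in the control, the same choices gave 111, 268, 203 and 874, with 381 without the 3 libraries with lens transcripts, and 186 to 493 with 1 library left out, the lowest without ZT21 replicate 3 and then replicate 4 (232). The interaction gave 1 call with the 4 groups alone, 3 with DESeq2 and 0 with each other setting, and 0 with any 1 library left out. Leaving libraries out leaves fewer samples, thinning leaves fewer reads and the unfiltered fit tested more genes; for the others the cause was not tested. No call of either genotype changed direction in any setting. Of the 79 named genes called, 35 were called in every setting, and 387 of the 957 genes were called with each of the 10 libraries left out. Aldoa, Pgam1, Pde6c and Wipi1 lost their calls with 7, and Samd11 and Slc16a8 with 8, of the 10 libraries left out singly.

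Libraries of the 2 times share replicate numbers, and these values cannot tell whether the numbers mark pairs. For libraries of the same number, correlations of their deviations ran from -0.06 to 0.60, and 2 of 5 were above 0.1. Of the 5 ZT21 libraries, 2 correlated best with their own number. With the replicate block 1214 genes were called in diabetic retina, 575 in the control and 0 in the interaction. Depth limits what is said of genes near 1 CPM, such as Fabp7 and Ribc2, and retinas of 5 animals per time limit the rest.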

Other observations

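Among gene groups not described above, 2 of 19 immediate early genes fell, where 2.71% of all genes tested were called lower. The median of the 19 was 0.05 on the log2 scale, and 10 of them had a positive fitted change. Nr4a3 fell from 4.62 ± 2.83 CPM at ZT9 to 1.71 ± 0.445 CPM at ZT21 (adjusted p = 0.0227 by edgeR). Btg2 fell from 106 ± 10.3 CPM at ZT9 to 85.6 ± 6.39 CPM at ZT21 (adjusted p = 0.0201). Neither was called without the 2 libraries with lens transcripts. Of 62 mitochondrial ribosomal proteins 3 fell and none rose, Mrps2, Mrps35 and Mrpl37 (log2 changes of -0.32, -0.30 and -0.22), all lost without those libraries. The list median was -0.06, against -0.01 over all genes tested, of which 5.09% were called and 2.71% were called lower, so this count is no result about the list. Of 25 autophagy genes 2 rose, the receptor Optn (0.23) and Wipi1 (0.20), and 1 fell, Atg16l1 (-0.30), and these calls were lost without those libraries too. Xbp1, a transcription factor of the unfolded protein response, rose from 47.2 ± 5.23 CPM at ZT9 to 59.6 ± 5.4 CPM at ZT21 (adjusted p = 0.0219 by edgeR), the 1 call among 13 genes of that response, lost without ZT9 replicate 1, ZT21 replicate 1 or ZT9 replicate 2 (adjusted p up to 0.101). Gclc, the rate-limiting enzyme of glutathione synthesis, fell from 40.2 ± 2.84 CPM at ZT9 to 33.3 ± 1.69 CPM at ZT21 (adjusted p = 0.00164), the 1 call among 23 antioxidant genes. With 5.09% of all genes called, single calls among 13 and 23 genes are no result about those lists, and the 3 autophagy calls were not in 1 direction. Of the 49 pathway lists 20 held no call, among them the proteasome (31 genes) and the photoreceptor ribbon synapse (20 genes).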
